A study of Mus musculus with 30 samples.

Results

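Oxidative phosphorylation is the last stage of respiration in mitochondria. Complex I (NADH dehydrogenase) and complex II (succinate dehydrogenase) pass electrons to ubiquinone, complex III passes them on to cytochrome c, and complex IV (cytochrome c oxidase) hands them to oxygen. Complexes I, III and IV pump protons as they work, and complex V (ATP synthase) uses the proton gradient to make ATP. Most subunits are encoded in the nucleus, translated in the cytosol and imported, while a few core subunits are made inside the organelle from mitochondrial DNA, and subunits of both origins must be joined by dedicated assembly factors. Undifferentiated spermatogonia are known to rely largely on glycolysis, and mitochondrial respiration is taken up more as germ cells differentiate.

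The oxidative phosphorylation mRNAs were chosen by symbol, as every listed gene whose name starts with Nduf, Uqcr, Atp5 or Cox4 to Cox8, together with Sdha, Sdhb, Sdhc and Sdhd, without symbols marked as pseudogene series. This gave 91 of 14558 genes. Of these, 81 had an RNA level (FPKM, reads scaled to transcript length and library depth) and 45 had a half-life. Both values were available for 35, a level only for 46, and a half-life only for 10. By function, 78 encode subunits of complexes I to V (35 of complex I, 4 of II, 8 of III, 15 of IV and 16 of V). The other 13 are 8 complex I assembly factors (Ndufaf1 to Ndufaf8), 3 retrocopies of subunit genes (Ndufb4c, Ndufa11b and Cox6c2, annotated as processed pseudogenes), Cox7a2l, which joins complexes into supercomplexes, and Atp5s, an ATP synthase-related gene. No value was listed for Ndufs8, a core subunit of complex I. All 81 genes with a level passed the limit of mean FPKM 1, and none was at 0 in either library.

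The study follows NANOS2, an RNA-binding protein that keeps spermatogonial stem cells (SSCs) undifferentiated, in SSC lines that were derived from testes of mice at postnatal day 7 on a DBA/2J x C57Bl/6 hybrid background and grown on fibroblast feeders. Line 4 is Nanos2TAG/+ and line 5 is Nanos2TAG/TAG, so that both carry an N-terminal V5, Myc, His and EGFP tag on NANOS2, on 1 or on both alleles, and neither is untagged. RNA-seq was done on 1 library per line, and SLAM-seq, in which RNA is labelled with 4-thiouridine and followed after the label is removed, on 12 libraries per line at 0, 30, 60, 120, 540 and 1440 min, from which 1 half-life was fitted for each transcript and line. Labels give QIAzol as the RNA extraction reagent of the Nanos2TAG/+ RNA-seq library and Trizol for the Nanos2TAG/TAG one. The study's methods name QIAzol alone. Genotype and line cannot be told apart, nor can the reagent if the labels hold. The study treats the 2 lines as biological replicates in RNA-seq and averages their levels. It describes the SLAM-seq as 2 biological replicates, each of 2 technical ones. Setting 1 line against the other is done here and was not a comparison of the study. With 1 value per line no test between lines was possible, and every difference is given as a description. The 2 FPKM columns carry abbreviated names, which were matched to the lines by their letters. In what follows, TAG/+ and TAG/TAG stand for these 2 lines.

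The library depths recovered from FPKM were 10908790 reads for TAG/+ and 11738620 for TAG/TAG, and oxidative phosphorylation mRNAs took between 4 and 13771 reads each in a library. SSC markers were listed in both libraries, among them Nanos2 at 27.5 (TAG/+) and 23.8 (TAG/TAG) FPKM, and 7 of the 14 SSC markers with a level were more than 1.5-fold higher in TAG/TAG, as were 20.8% of all genes. Fibroblast feeder markers summed to 419 FPKM in TAG/+ and 596 in TAG/TAG, although the study removed feeders or sorted the SSCs, with 14 of 15 listed, none at 0 and 7 of 14 more than 1.5-fold higher in TAG/TAG, beside the same 20.8%. Of 10 testis somatic markers 4 were listed, and they summed to 9.97 and 27.7 FPKM. By more than 1.5-fold, 3 of the 4 were higher in TAG/TAG, among them Wt1 at 2.51 and 19.6 FPKM. The other, Star, was lower, at 4.62 and 1.20 FPKM. Markers of differentiating and meiotic germ cells summed to 534 and 333 FPKM. These marker levels therefore differed between the libraries together with the values reported here, and their part in those values was not tested. In bulk RNA, fewer cells of a type and less RNA per cell cannot be told apart.

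The main feature of these mRNAs was a long half-life. Over all 5806 transcripts with a half-life the median was 224 min in TAG/+ and 226 min in TAG/TAG, whereas the 45 oxidative phosphorylation mRNAs had medians of 495 and 509 min. In TAG/+, 41 of 45 lay above the third quartile of all transcripts (289 min), where 25.0% of all transcripts lie by definition. In TAG/TAG, 42 of 45 lay above it (300 min), again against 25.0% of all transcripts. The same 41 were above the limit in both lines, compared with 19.1% of all transcripts. The longest decile held 34 of the 45 in TAG/+ and 29 in TAG/TAG, and 27 were in it in both, against 7.56% of all transcripts. Long half-lives were found in every complex: all 20 complex I subunits with a half-life, the 1 of complex II, 3 of 4 of complex III, 7 of 7 of complex IV and 8 of 9 of complex V were above the third quartile in both lines.

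**Figure D1:**
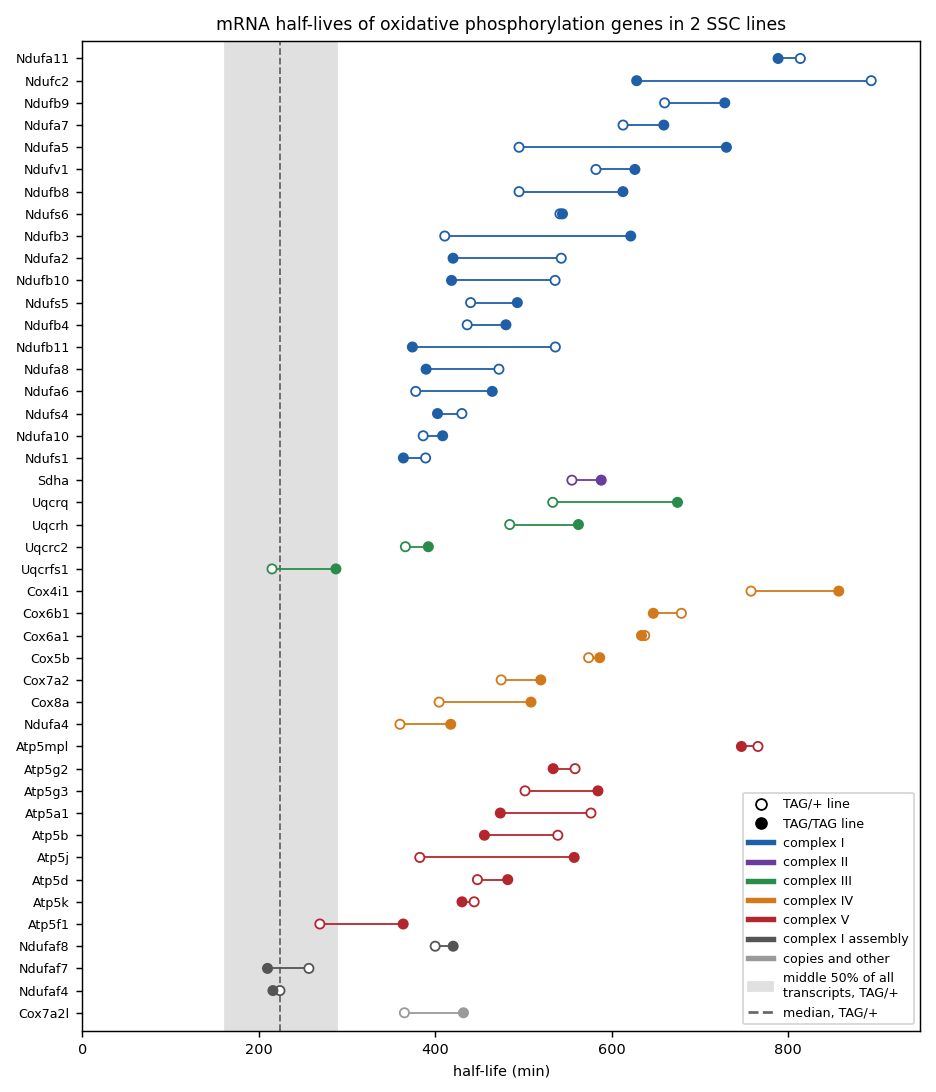
Half-lives in minutes (horizontal axis) of 44 of the 45 oxidative phosphorylation mRNAs that have one, 1 row per gene, with an open point for TAG/+, a filled point for TAG/TAG and colours for the complexes; the grey band is the middle 50% of all transcripts in TAG/+ (162 to 289 min) and the dashed line their median. Nearly all points lie to the right of the band, both points of Uqcrfs1, Ndufaf7 and Ndufaf4 lie in it, and so does the TAG/+ point of Atp5f1.

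Complex I, the largest of the 5, is built from a catalytic core that binds flavin and iron-sulfur clusters and from accessory subunits around it. Of its core, Ndufv1, the flavin-binding subunit, had half-lives of 582 min in TAG/+ and 626 min in TAG/TAG. Ndufs1, the large iron-sulfur subunit, had 389 and 364 min, the shortest mean of the 20 complex I subunits and yet above the third quartile in both lines. Among accessory subunits, Ndufa11 had 814 and 789 min and Ndufc2 894 and 628 min. Of those listed without a level, Ndufa6, Ndufa7 and Ndufs4 had 378, 613 and 430 min in TAG/+ and 465, 659 and 403 min in TAG/TAG. The value of Ndufc2 in TAG/+ was the longest of any oxidative phosphorylation mRNA. Half-lives of the 17 accessory subunits ran from 378 to 894 min in TAG/+ and from 374 to 789 min in TAG/TAG, so that the values of core and accessory mRNAs overlapped.

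Sdha, the flavoprotein of complex II that oxidizes succinate, had half-lives of 555 min in TAG/+ and 588 min in TAG/TAG. In complex III, the values of Uqcrq and Uqcrh, 2 small subunits, were 533 and 485 min in TAG/+ and 675 and 562 min in TAG/TAG. The core protein mRNA Uqcrc2 had 366 and 392 min. The exception was Uqcrfs1, which encodes the Rieske iron-sulfur protein: its half-life was 215 min in TAG/+, below the median of all transcripts, and 288 min in TAG/TAG.

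Complex IV held the longest mean of both lines. Cox4i1, a nuclear subunit that binds the catalytic core, had half-lives of 758 min in TAG/+ and 857 min in TAG/TAG. Cox6b1, Cox6a1 and Cox5b followed with 679, 638 and 574 min in TAG/+ and with 647, 634 and 587 min in TAG/TAG. Cox7a2 and Cox8a lay lower, at 475 and 405 min in TAG/+ and at 520 and 509 min in TAG/TAG. Ndufa4, which was named for complex I and is now counted with complex IV, had 360 and 418 min. The supercomplex factor Cox7a2l had 365 and 432 min.

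In complex V, the F1 part carries the catalytic sites and the Fo part the proton channel. The catalytic beta subunit mRNA Atp5b had half-lives of 539 min in TAG/+ and 456 min in TAG/TAG, and that of the alpha subunit, Atp5a1, 577 and 474 min. Atp5d, the delta subunit of F1, had 448 and 482 min. Of the Fo part, Atp5mpl (a small proteolipid) stood highest with 766 and 747 min. The c subunit of the rotor ring is encoded by 3 genes, of which Atp5g2 had 559 and 534 min and Atp5g3 502 and 585 min. Atp5f1, a subunit of the peripheral stalk, was the lowest of the complex with 269 min in TAG/+, under the third quartile, and 364 min in TAG/TAG.

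Of the 3 assembly factors with a half-life, 1 was above the third quartile in both lines, beside 19.1% of all transcripts. Ndufaf4 had half-lives of 224 min in TAG/+ and 216 min in TAG/TAG, and Ndufaf7 had 257 and 210 min, both near the medians of all transcripts. Ndufaf8, by contrast, had 400 and 420 min. Among assembly factors of complex I outside the naming rule, the 4 with a half-life had medians of 181 and 197 min. None of these 4 was above the third quartile in both lines. The 12 assembly factors of complex IV with a half-life had medians of 243 and 242 min, with 2 above the third quartile in both lines. Both counts are small and lie near what the 19.1% of all transcripts would give. The 4 listed regulators of mitochondrial biogenesis with a half-life, transcription and co-activator genes such as Tfam and Yy1, had medians of 168 and 182 min. Among electron carriers, Cyc1 (cytochrome c1, a complex III subunit outside the naming rule) had 505 and 445 min, while Cycs, which encodes cytochrome c, had 236 and 238 min.

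Few of these half-lives differed by more than 1.5-fold between the lines. The ratio exceeded 1.5-fold in either direction for 1 of 45 oxidative phosphorylation mRNAs, Ndufb3, an accessory subunit, with 411 min in TAG/+ and 622 min in TAG/TAG. Over all transcripts, 20.7% were past this limit. The next largest ratios in the longer direction were those of Ndufa5 (495 and 730 min), Atp5j (383 and 558 min), Atp5f1 (1.35-fold) and Uqcrfs1 (1.34-fold). In the shorter direction the largest were Ndufb11, with 536 min in TAG/+ and 374 min in TAG/TAG, Ndufc2 (1.42-fold), Ndufa2 (543 and 420 min), Ndufb10 (536 and 419 min) and Ndufaf7 (1.22-fold). The median absolute difference between the lines was 11.3% of the mean against 18.6% over all transcripts. The median log2 ratio was 0.08 for these mRNAs and 0.04 for all transcripts. By complex, 11 of 20 complex I subunits and 4 of 9 complex V subunits had the longer value in TAG/TAG, as did 4 of 4 of complex III and 5 of 7 of complex IV, beside 3139 of all 5806 transcripts.

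Half-life moved with level and with transcript length. Across all 5152 transcripts with both values, Spearman's rho of mean half-life and mean FPKM was 0.51, and across the 35 oxidative phosphorylation mRNAs it was 0.46, where the points share their libraries. In TAG/+ alone the rho of the 35 was 0.56 and in TAG/TAG alone 0.26. With mean transcript length the rho was -0.29 over all 5794 transcripts with a length and -0.44 over the 45. Within classes of level the difference from all transcripts remained visible. Between 20 and 50 FPKM, 5 oxidative phosphorylation mRNAs had medians of 472 min in TAG/+ and 420 min in TAG/TAG, beside 222 and 225 min for all 1443 transcripts of that class. From 50 to 100 FPKM, the medians of 8 were 535 and 482 min, beside 247 and 250 min. At 200 FPKM and over, those of 8 were 658 and 631 min, beside 369 and 412 min. All 8 were above the third quartile of all transcripts in both lines, against 68.4% of that class. Under 500 nt of mean annotated length, 5 mRNAs had medians of 613 and 647 min, beside 475 and 531 min for all 27. There 5 of 5 were above the third quartile in both lines, against 74.1% of all. For transcripts with a mean annotated length from 500 to under 1000 nt, 33 oxidative phosphorylation mRNAs had medians of 495 and 534 min beside 292 and 303 min for all 730 of that length, and 33 of 33 were above the third quartile in both lines, against 44.0% of all. From 1000 to under 1500 nt the difference was smaller, with medians of 269 and 364 min for 5 mRNAs beside 243 and 245 min for all 1328, and 2 of 5 above the third quartile in both lines, against 23.5% of all. When the limit was set by transcripts shorter than 1000 nt alone (433 min in TAG/+ and 478 min in TAG/TAG), 28 and 25 of 38 lay above it, a limit that 25.0% of those transcripts pass by definition. These class medians rest on few mRNAs each, and the class of level and the class of length were not combined.

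**Figure D2:**
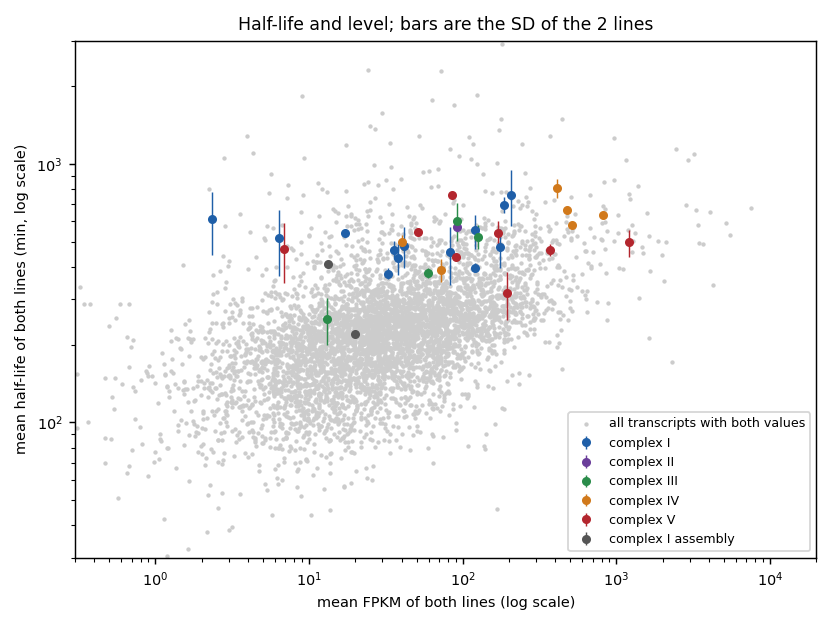
Mean half-life of both lines in minutes against mean FPKM of both lines, both on log axes, for all transcripts with both values (grey) and 34 of the 35 oxidative phosphorylation mRNAs (coloured by complex, with bars for the SD of the 2 lines). Most coloured points lie in the upper part of the grey cloud at their level, while the assembly factor Ndufaf4 (19.8 FPKM, 220.2 min) lies within it.

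The 3′ untranslated regions (3′ UTRs) were short in these genes. In GENCODE M21 on GRCm38, the median length was 176.5 nt over 88 oxidative phosphorylation genes, and 197 nt over the 45 with half-lives, compared with 1206 nt over 5788 transcripts with half-lives. The sequence that the study describes for NANOS2 sites was searched on the sense strand in its 4 forms, AUGAAAU and AUGAAUU and, with U at the third base, AUUAAAU and AUUAAUU. At least 1 match was found in 10 of the 45 genes with half-lives (22.2%) and in 41.6% of all transcripts with half-lives, whose 3′ UTRs are longer. Among those with a 3′ UTR under 500 nt the order was the other way, with 7 of 38 (18.4%) beside 12.2% of all 1382. Per kilobase of 3′ UTR, the matches numbered 1.16 in the 45 genes and 0.487 in all transcripts. Of the 18 matches in the 45 genes, 7 lie in Ndufaf4, and over all 88 genes the number was 0.774 per kilobase. With a 3′ UTR under 500 nt it was 1.20 in the 38 genes and 0.536 in all 1382. The windows below show 2 long-lived subunit mRNAs with matches and the assembly factor Ndufaf4, whose long 3′ UTR of 3026 nt holds 7 matches. They are given 5′ to 3′ on the mRNA with the match in capitals and its position in GRCm38.
Sdha at chr13:74322474-74322480, minus strand: ggauuggcuugAUUAAUUuaauuguuaag
Ndufa5 at chr6:24518691-24518697, minus strand: gguggaugggaAUUAAAUgugcaauuaaa
Ndufa5 at chr6:24518679-24518685, minus strand: uuaaaugugcaAUUAAAUgcucugugaug
Ndufaf4 at chr4:24902039-24902045, plus strand: guuuugcguguAUUAAAUuauacaaguuc
Ndufaf4 at chr4:24903060-24903066, plus strand: uauucuguaaaAUGAAAUacauuucaaaa
The 10 genes with a match had median half-lives of 411 min in TAG/+ and 477 min in TAG/TAG, and the 35 without had 502 and 520 min, with ranges that overlapped almost in full. Among transcripts with a 3′ UTR under 500 nt, 38 oxidative phosphorylation mRNAs had medians of 499 and 527 min, and all 1382 such transcripts 271 and 274 min. A match is a description of the letters and was not tested as a site of binding.

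RNA levels spanned a wide range within and between the complexes. The highest mean FPKM was that of Atp5b, with 1443 in TAG/+ and 967 in TAG/TAG. It was followed by Cox6a1 with 855 and 784, Ndufb4c with 627 and 491, Atp5o (a subunit of the ATP synthase stalk) with 545 and 552, and Cox5b with 550 and 473. The lowest were Atp5s with 2.81 and 1.44 FPKM, Ndufa5 with 3.00 and 1.64, Ndufa1 with 0.875 and 5.08, Ndufaf3 with 5.49 and 2.24, and Ndufb3 with 7.09 and 5.69. By complex, the median FPKM in TAG/+ was 143 for complex III, 110 for complex V, 70.4 for complex II, 57.7 for complex IV, 42.2 for complex I and 13.2 for the assembly factors. In TAG/TAG these were 74.0, 82.9, 56.7, 39.7, 36.3 and 8.78, and the ranges of the complexes overlapped in both lines. FPKM values within 1 complex were thus far from equal. Each complex I subunit measured here is present once per enzyme apart from Ndufab1, and levels ran from 0.875 to 458 FPKM in TAG/+. The lowest, Ndufa1, rests on 4 reads in that library. FPKM here divides reads by the mean length of all annotated transcripts of a gene, whichever of them is expressed. Levels of different genes thus also depend on the annotation: Ndufb7, with 383 reads and a mean length of 2529 nt, had 13.9 FPKM in TAG/+. Levels of the 2 libraries ranked the 81 genes alike (Spearman's rho 0.97, and 0.92 over all genes), and 9 of the 81 had under 50 reads in a library.

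Some levels rest on which copy of a gene was counted. Ndufb4c, among the 5 highest, is a retrocopy on chromosome 15 that is 100% identical to the 387 nt of Ndufb4 coding sequence, and none of its 50-base words (the length of the reads) occurs only once in the genome. Ndufb4 itself, on chromosome 16, had no FPKM listed but had half-lives of 436 min in TAG/+ and 480 min in TAG/TAG. Ndufa11b, at 442 and 476 FPKM, is 94.8% identical to Ndufa11, which likewise had half-lives and no FPKM, and 89.6% of its 50-base words are unique. Cox6c2, at 14.3 and 20.7 FPKM, is 96.9% identical to Cox6c, at 8.26 and 5.12 FPKM. Reads of Ndufb4c thus cannot be placed by sequence alone, whereas 83.9% of the 50-base words of Ndufb4 are unique, and for the other pairs part of the reads could come from either gene. Over the 81 genes with FPKM the median share of unique 50-base words was 98.8%, and 18 were under 90%. Exons of 27 genes overlap another annotated gene on the opposite strand, and for Ndufaf2 the overlap is 65.6% of its exonic bases. How reads were counted on each strand is not given in the sources used here.

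Between the lines, oxidative phosphorylation mRNAs were more often lower than higher in TAG/TAG. Of 81, 28 were lower by more than 1.5-fold and 4 were higher, and over all 12546 genes tested 18.6% were lower and 20.8% higher. With a limit of 2-fold, 6 of the 81 were lower and 4 higher, beside 8.67% and 11.7% of all genes, so that the excess of lower genes was not seen past 2-fold. The median log2 ratio (TAG/TAG over TAG/+, on the scale of FPKM plus 0.1) was -0.36 for these mRNAs and 0.00 for all genes. In sum, they made up 1.53% of all FPKM in TAG/+ and 1.30% in TAG/TAG. Exact binomial 95% intervals on the recovered reads, which cover counting error only, lay below 0 for 50 of 81 genes, above 0 for 11 and held 0 for 20. These intervals were not computed for all genes, and they are narrower where a gene has more reads. The counts therefore have no share of all genes to stand beside. No replicate library shows how far 2 cultures of 1 genotype differ.

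**Figure D3:**
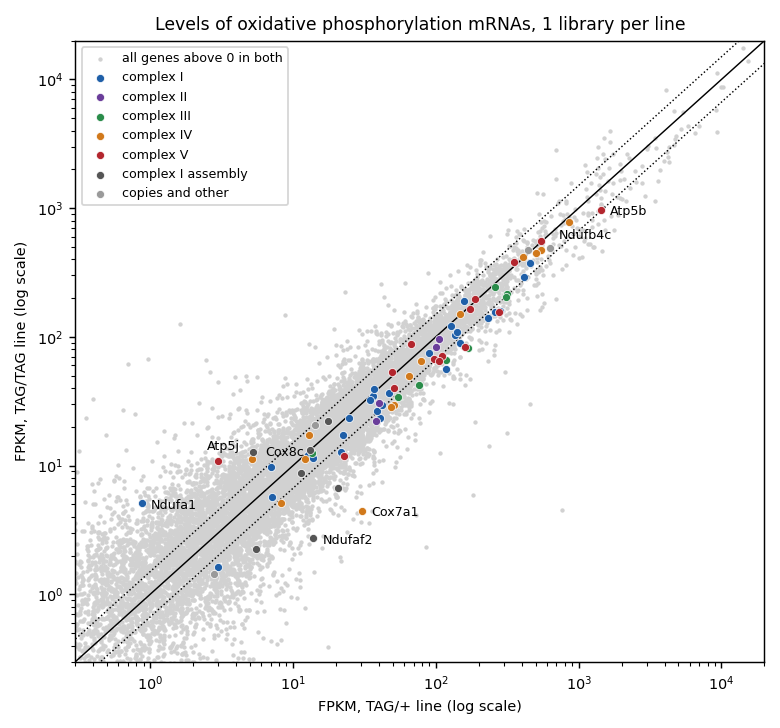
FPKM in TAG/TAG against FPKM in TAG/+, both on log axes, for all genes above 0 in both libraries (grey) and 80 of the 81 oxidative phosphorylation genes (coloured by complex); the solid line marks equal levels and the dotted lines 1.5-fold. Most coloured points lie between the solid line and the lower dotted line or just past it, and Ndufa1, Atp5j, Cox8c, Ndufaf2 and Cox7a1 stand apart.

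Short transcripts as a whole were lower in TAG/TAG. For all genes with a mean transcript length under 500 nt the median log2 ratio was -0.38 and 43.3% were lower by more than 1.5-fold, and for those from 500 to under 1000 nt it was -0.14 and 29.4%. Oxidative phosphorylation mRNAs are mostly of this size. Their median was -0.32 in the first class (14 genes) and -0.37 in the second (48 genes). From 1000 to under 1500 nt it was -0.13 (15 genes), where all genes had a median of 0.00. In these 3 classes, 5 of 14, 17 of 48 and 5 of 15 were lower by more than 1.5-fold, beside 43.3%, 29.4% and 17.9% of all genes. In the shortest class the count was thus not above the share of all genes. After the median of each length class was taken off, a step chosen after seeing the data, the median of the 81 was -0.21. By more than 1.5-fold, 20 of the 81 were then lower and 5 higher, beside 18.1% and 21.1% of all genes. The part of transcript length in the lower levels was not tested beyond this.

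**Figure D4:**
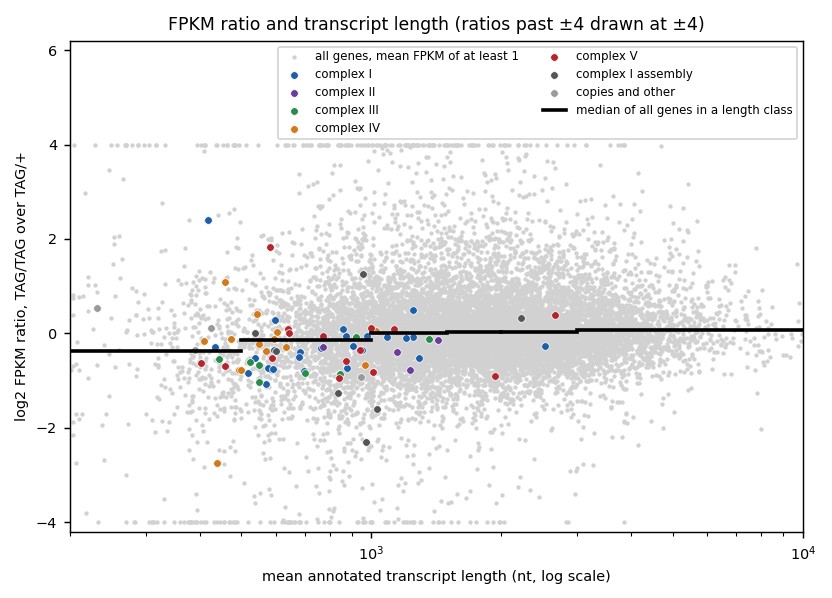
Log2 FPKM ratio of TAG/TAG over TAG/+ against mean annotated transcript length in nt (log axis), with all genes of mean FPKM 1 or more in grey, ratios past 4 in size drawn at 4, 80 of the 81 oxidative phosphorylation genes coloured by complex and black bars for the median of all genes in each length class. The bars lie below 0 under 1000 nt and near 0 above, and most coloured points lie at the short end and below 0.

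The median log2 ratio was below 0 in each complex, at -0.36 for I, -0.34 for II, -0.63 for III, -0.19 for IV and -0.34 for V. The spread differed between them. Over all genes, 6304 of 12546 had the lower value in TAG/TAG, and 18.6% were lower and 20.8% higher by more than 1.5-fold. In complex I, 25 of 29 subunits had the lower value in TAG/TAG, 9 of them by more than 1.5-fold, and 1 was higher by more than 1.5-fold. All 5 core subunits with a level were lower. Ndufs3 had 279 FPKM in TAG/+ and 160 in TAG/TAG, a log2 ratio of -0.81 with a counting interval from -0.91 to -0.71. Ndufs7 had 412 and 293 FPKM, Ndufv2 140 and 110, and Ndufs1 38.5 and 26.8. The accessory subunit Ndufb6 had 118 and 56.4 FPKM, 2.09-fold lower in TAG/TAG. The 1 higher subunit, Ndufa1, rests on 4 reads in TAG/+ and 25 in TAG/TAG, with an interval of the log2 ratio from 1.00 to 4.52. Ndufb2, at 6.96 and 9.81 FPKM, and Ndufb10, at 157 and 191, were higher by less than 1.5-fold.

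In complex II, Sdhd, a membrane anchor, had 38.4 FPKM in TAG/+ and 22.4 in TAG/TAG. Sdha had 101 and 82.9, Sdhb (the iron-sulfur subunit) 40.0 and 30.5, and Sdhc (the other anchor) 106 and 96.6, so that 4 of 4 were lower and 1 of them by more than 1.5-fold. Complex III had the lowest median, a log2 ratio of -0.63, with 8 of 8 lower and 5 of 8 by more than 1.5-fold. Beside these counts, 6304 of all 12546 genes were lower, and 18.6% of all genes by more than 1.5-fold. Uqcrh, the hinge protein, had 169 and 82.3 FPKM, Uqcrq 117 and 65.7, and Uqcrc2 76.3 and 42.1. Uqcrc1, the partner of Uqcrc2 in the core of the complex, had 260 and 245 FPKM, and Uqcrfs1 13.6 and 12.5. Half-lives of the 4 complex III mRNAs that have them were, in the same comparison, longer in TAG/TAG. Across the 35 genes with both values, the log2 ratios of level and of half-life had a Spearman's rho of -0.08.

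**Figure D5:**
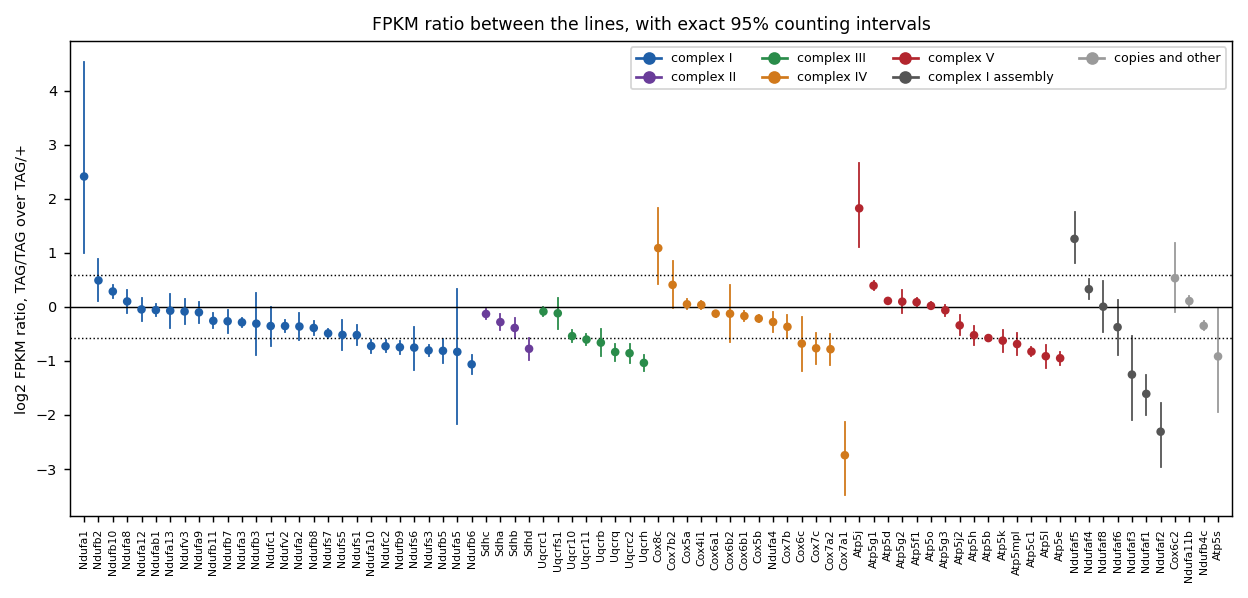
Log2 FPKM ratio of TAG/TAG over TAG/+ for 80 of the 81 oxidative phosphorylation genes, ordered by complex and then by ratio, with exact 95% counting intervals as bars and dotted lines at 1.5-fold in either direction. The points of complexes II and III all lie below 0, and the widest bars, of Ndufa1 and Ndufa5, belong to genes with few reads.

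Complex IV was split. Its most abundant subunits differed little between the lines: Cox4i1 had 407 FPKM in TAG/+ and 417 in TAG/TAG, Cox5a 147 and 152, Cox5b 550 and 473, Cox6a1 855 and 784, and Cox6b1 504 and 448. Cox7a2 with 50.9 and 29.5 FPKM, Cox7c with 48.8 and 28.7, and Cox6c were lower by more than 1.5-fold. Ndufa4, with 79.4 and 65.3 FPKM, and Cox7b were lower by less than this. Several subunits have a second form that is best known from testis or muscle. The forms known from testis were present at low levels, with Cox6b2 at 12.2 FPKM in TAG/+ and 11.2 in TAG/TAG, Cox7b2 at 13.0 and 17.3, and Cox8c at 5.20 and 11.2, while Cox7b had 64.4 and 49.9. Cox8c was 2.14-fold higher in TAG/TAG, from 26 and 60 reads. Cox7a1, the form known from heart and muscle, had the lowest ratio of all 81, with 30.5 FPKM in TAG/+ and 4.46 in TAG/TAG, from 146 and 23 reads (log2 ratio -2.74, counting interval from -3.47 to -2.13). No half-life was listed for these 4 forms.

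In complex V, 9 of 15 subunits had the lower value in TAG/TAG, not far from the share of all genes (6304 of 12546). Of the 15, 5 were lower by more than 1.5-fold, beside 18.6% of all genes. The F1 subunit mRNAs Atp5c1 (gamma) and Atp5e (epsilon) had 277 and 160 FPKM in TAG/+ and 156 and 82.9 in TAG/TAG. Atp5b, at a ratio of 1.49-fold, lay just inside the limit, while Atp5d had 355 and 383 FPKM. Among stalk and Fo subunits, Atp5l had 22.6 and 11.9 FPKM, and Atp5j, a coupling factor, was the most strongly higher of the oxidative phosphorylation genes with at least 1 FPKM in both lines, with 2.99 FPKM (19 reads) in TAG/+ and 10.8 (74 reads) in TAG/TAG. The 3 genes of the c subunit, whose coding sequences are between 71.1% and 84.3% identical over their aligned parts, had 66.6, 49.7 and 174 FPKM (Atp5g1, Atp5g2 and Atp5g3) in TAG/+ and 87.3, 53.1 and 166 in TAG/TAG. Each of these 3 differed by less than 1.5-fold. Atp5g1 had more reads than Atp5g3, with 1936 and 1462 in TAG/+ and 2733 and 1505 in TAG/TAG. Its mean annotated length is 2665.5 nt against 772 nt for Atp5g3, so the order of the 2 by FPKM differs from that by reads.

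The assembly factors spread widely, with log2 ratios from -2.31 to 1.26. Ndufaf2 had 13.9 FPKM in TAG/+ and 2.72 in TAG/TAG (147 and 31 reads), Ndufaf1 20.6 and 6.70 (232 and 81 reads), and Ndufaf3 5.49 and 2.24 (50 and 22 reads). Ndufaf5 was 2.42-fold higher in TAG/TAG, with 5.26 and 12.7 FPKM. Ndufaf4, Ndufaf6 and Ndufaf8 had 17.5, 11.4 and 13.2 FPKM in TAG/+ and 22, 8.78 and 13.2 in TAG/TAG. Complex I assembly genes outside the naming rule were similarly mixed, with 5 of 10 lower and 2 of 10 higher by more than 1.5-fold, among them Timmdc1 with 36.6 and 13.2 FPKM and Ecsit with 43.5 and 81.2. For complex IV assembly 4 of 19 were lower and 1 higher, for complexes II and III 3 of 10 were lower and none higher, and for complex V assembly and regulation 1 of 4 was lower and none higher, beside the 18.6% lower and 20.8% higher of all genes.

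Subunits encoded by mitochondrial DNA went both ways. All 13 were listed and summed to 51962 FPKM in TAG/+ and 55399 in TAG/TAG. By more than 1.5-fold, 3 were higher, among them mt-Cytb, the cytochrome b of complex III, with 4082 and 8321 FPKM, and 3 were lower, namely mt-Nd3 (complex I) with 314 and 17.9, mt-Co2 (complex IV) with 408 and 217, and mt-Atp8 (complex V) with 7005 and 4348. With 7 of 13 at the lower value and a median log2 ratio of -0.11, these counts lay near the shares of all genes, 18.6% lower and 20.8% higher past 1.5-fold. mt-Co1, the catalytic subunit of complex IV, had 4649 and 5681 FPKM. Regulators of mitochondrial biogenesis were near equal: 1 of 10 was higher by more than 1.5-fold (Ppargc1b, 3.03 and 5.63 FPKM) and none was lower, and the nuclear respiratory factor gene Nrf1 had 25.8 and 31.6 FPKM.

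Promoters of respiratory genes are known to carry sites for NRF-1, for ETS factors such as GABPA and for YY1. RefSeq promoter windows of GRCm38.p6, from 250 bases before to 50 after the start, were found for 74 of the 91 genes (79 windows) and searched on both strands. The letters GCATGCGC, the core of the NRF-1 site, were in 12 windows (15.2%), in 2.71% of all 32851 windows and in 5.35% of the 11591 windows of genes with mean FPKM 1 or more. The letters CCGGAAG (ETS) were in 21.5%, 8.86% and 17.1%, and AAGATGGC (YY1) in 13.9%, 2.75% and 4.37%. For NRF-1, 1 window per complex is shown, 5′ to 3′ in the direction of the gene with the match in capitals, since such matches were found in every complex.
Ndufa8 at chr2:36049339-36049346, minus strand: tcgctggagacGCATGCGCagatggtaccg
Sdhb at chr4:140961217-140961224, plus strand: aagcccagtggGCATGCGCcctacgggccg
Uqcrc1 at chr9:108936680-108936687, plus strand: ctccgctctgcGCATGCGCagcgcggctc
Cox6a1 at chr5:115349111-115349118, minus strand: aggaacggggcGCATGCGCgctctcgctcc
Atp5k at chr5:108434440-108434447, minus strand: ttcactgcggcGCATGCGCctttctggctt
For YY1, 3 of the 11 windows are shown, all from complex I subunit genes and all with the match shortly after the start.
Ndufs7 at chr10:80249473-80249480, plus strand: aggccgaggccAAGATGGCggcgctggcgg
Ndufs6 at chr13:73328442-73328449, minus strand: gggtcaccggcAAGATGGCggcggtgct
Ndufc1 at chr3:51408926-51408933, minus strand: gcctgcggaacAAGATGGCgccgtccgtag
Of the 10 genes with GCATGCGC and a level, 6 were lower in TAG/TAG, with a median log2 ratio of -0.11. Of the 16 with CCGGAAG and a level, 14 were lower, with a median of -0.62, and of the 10 with AAGATGGC, 7 were lower, with a median of -0.32, beside -0.36 and 62 lower for all 81 and 6304 lower of all 12546 genes. These counts describe letters in 1 window per start and say nothing of whether a factor was bound.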

How the data were processed

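The authors deposited FPKM for 13904 genes in 1 RNA-seq library per line (ribosomal RNA-depleted total RNA), and SLAM-seq half-lives in minutes for 5806 transcripts per line, fitted by the authors with SlamDunk conversion rates and a first-order decay after collapsing technical replicates. The deposited half-lives, a kind of score here without error or depth, were used as listed. The submitters' processing notes name kallisto and DESeq2 without a role, and the counting method and annotation of RNA-seq are not given in the sources used here. FPKM columns were assigned to lines by their abbreviated names, which the labels do not explain, and half-life tables by the genotype they are named for. FPKM multiplied by the mean transcript length of GENCODE M21 gave whole reads (within 0.02) for 100% of 13884 genes, which fixed the depths and the exact intervals. A self-test on simulated reads was run first.

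Ratios used a pseudocount of 0.1 and genes of mean FPKM 1 or more, and a call was a ratio past 1.5-fold or a half-life above the third quartile. No test was possible with 1 value per line. Alternatives were a pseudocount of 1, other limits of FPKM, rescaling, 2-fold calls, half-lives up to 1440 min, other backgrounds and each line alone. Named genes were the 5 at either end of level, half-life and both ratios, core subunits, isoform groups, assembly factors and genes listed in 1 file. The genes and lists were chosen with earlier results of these data known. CRAC libraries were not used here. Uniqueness was the share of 50-base words, taken at every exonic base of these genes, that occur once in GRCm38. Analyses used Python 3.11.15, numpy 2.4.6, pandas 2.3.3 and scipy 1.17.1. The values of 1 gene are not reported here, and it stays in the counts and medians but not in the plots.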

Additional observations from a re-analysis of the deposited data

How the results depend on the processing

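Of 46 alternatives over 11 results, 37 left the value near that reported and 9 moved it. For counts, near meant within 1.5-fold of the reported count, without regard to how many mRNAs entered. The tally therefore does not measure how stable the shares were. A change of direction was looked for only in the median log2 FPKM ratio and in Spearman's rho, where none was seen. The other results are counts and half-lives, which have no sign to turn. With a limit of 2-fold in place of 1.5-fold, 6 oxidative phosphorylation mRNAs were lower in FPKM (8.67% of all genes were), 4 were higher (11.7% of all genes) and 0 had a longer half-life in TAG/TAG, since fewer ratios pass the wider limit. Taking off the median ratio of each length class, chosen after seeing the data, moved the median log2 FPKM ratio to -0.21. It also left 20 of 81 lower past 1.5-fold in place of 28, which was tallied as near, beside 18.1% of all genes. With the background of half-lives limited to mean FPKM 20 or more, 27 of 28 mRNAs were above the third quartile in TAG/+, and with FPKM 50 or more 22 of 23 in TAG/+ and 21 of 23 in TAG/TAG were; fewer of the mRNAs enter there. Limited to transcripts under 1000 nt, also chosen after seeing the data, 28 of 38 were above it in TAG/+ and 25 of 38 in TAG/TAG. Against all transcripts these were 41 and 42 of 45. The TAG/+ count was tallied as near although its share was smaller. Spearman's rho of half-life and FPKM was 0.56 in TAG/+ alone and 0.26 in TAG/TAG alone; the cause was not tested. No paired analysis was possible because each line has 1 RNA-seq library and 1 fitted half-life per transcript and no test was made. Depth limits the 9 genes with under 50 reads in a library, and half-lives come without an error.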
